A study of Mus musculus with 4 samples.

Results

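The nuclear-encoded respiratory chain was examined in 2 mammary tumor cell lines before and after the NOTCH1 transgene was switched off. Its members were the genes whose symbol begins with Nduf, Sdh, Uqcr or Atp5, or with Cox and a digit, in the annotation of the array. There were 102 such genes among the 18193 genes that a probe set with a single symbol represented, namely 34 subunits of complex I, 4 of complex II, 8 of complex III, 19 of complex IV, 17 of complex V and 20 assembly factors. Ndufa4 and Ndufa4l2 were placed with complex IV, to which NDUFA4 is now assigned. Lines 8534 and 8542 were each established from a primary mammary tumor of MMTV-tTA/TOP-ICN1 mice (females, strain FVB/N;B6). The MMTV promoter drives the tet transactivator, which in the absence of doxycycline turns on human ICN1, the intracellular domain of NOTCH1. All 4 arrays therefore came from transgenic cells, 2 untreated (ICN1 on) and 2 treated with 2 µg/ml doxycycline for 24 hours (ICN1 off). Each line was 1 culture per condition, there was no line without the transgene, and an effect of doxycycline itself cannot be told apart from loss of ICN1.

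The respiratory chain is the set of protein complexes in the inner mitochondrial membrane that passes electrons to oxygen and uses the energy to make ATP. Complex I (NADH dehydrogenase) and complex II (succinate dehydrogenase) feed electrons to ubiquinone, complex III passes them to cytochrome c, complex IV (cytochrome c oxidase) reduces oxygen, and complex V is the ATP synthase driven by the proton gradient. Most subunits are encoded in the nucleus, and assembly factors insert cofactors or join subunits without staying in the finished enzyme. MYC and the PGC-1 coactivators, with the factors NRF1 and GABP, are known regulators of this gene set.

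Of the known NOTCH1 targets, Hey1 and Dtx1 fell (log2 changes of -3.56 and -2.92 for Hey1 and -1.62 and -1.90 for Dtx1 in lines 8534 and 8542, limma adjusted p = 0.000283 and 0.00143). Hes1 was lower in both lines (-0.80 and -0.40) but did not pass (limma adjusted p = 0.0579). Luminal markers were present in both lines, with Krt8 at 3467 to 7165 units of MAS5 signal and Epcam at 1663 to 3003 units. The 8 luminal markers summed to 20300 and 23100 units (untreated, then doxycycline) in line 8534 and to 18180 and 17600 units in line 8542, and within that sum Krt8 and Krt18 rose (limma adjusted p = 0.0295 and 0.0163) and Krt19 and Elf5 fell (0.00302 and 0.00117). Basal markers differed between the lines, since the sum of 4 such markers was 4451 and 7504 units in line 8534 and 188 and 236 units in line 8542. Most of that sum was Acta2, with 3012 and 6588 units in line 8534 and 148 and 181 units in line 8542. Krt14 went the other way, with 1379 and 869 units in line 8534 and 15.9 and 10.0 units in line 8542. Neither passed (limma adjusted p = 0.0688 and 0.0635), and Krt5 and Trp63 had low signals (7.53 to 52.9 units). The leukocyte markers measured (4) summed to 155 to 206 units, those of fibroblasts (4) to 63.7 to 306, those of endothelium (3) to 88.0 to 128.5, and those of adipocytes (2) to 16.5 to 24.6. The proliferation markers Mki67, Top2a, Tk1 and Rrm2 all fell, and their summed signal was 4509 units without and 531 units with doxycycline in line 8534, and 5186 and 152 units in line 8542. The part of these marker shifts in the changes of the respiratory chain was not tested. In RNA from whole cultures, fewer cells of a kind and less RNA per cell cannot be told apart.

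Most of the respiratory chain moved little. Of 102 members, 100 passed the filter on low signals and were tested with limma, with cell line as a block and adjustment over all 33778 probe sets tested. By that test 5 members fell, 1 in each of complexes I to V, and none rose. Of all genes tested, 6.95% fell and 4.76% rose, so that the 5% of members that fell is near the background. At an unadjusted p under 0.05, 22 of 100 members were lower and 3 were higher, against 14.1% and 12.4% of all genes tested. No member changed by more than 2-fold in both lines, against 4.42% of all genes lower and 3.09% higher by that rule of the methods. A dimmer probe set of Ndufa10 (1418068_at), not the one that represents the gene, did change by more (39.1 and 8.79 units in line 8534, 43.0 and 8.91 units in line 8542, limma adjusted p = 0.0205), whereas the brighter one changed by -0.28 and -0.46 (limma adjusted p = 0.126). The mean change of 96 of the 100 members lay within 0.5 of 0 on the log2 scale. The smallest mean change called among members was -0.48 (Cox8a), and no member with a smaller mean change passed. None of the 5 passed without the block for cell line or without the intensity trend of the test (lowest adjusted p 0.14 and 0.253, both for Ndufa5). With no filter on low signals Ndufa5 and Sdhd passed, and Atp5g2, Uqcrfs1 and Cox8a did not (limma adjusted p = 0.0674, 0.0603 and 0.0762).

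Among genes at least as bright as the median member, calls were more frequent. Of 534 genes at or above the median level of the members (10.2 on the log2 scale), a set added after the values were seen, 14.8% fell and 14.2% rose in the same test. Of the 50 members among them, 6% (3) fell and none rose.

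The direction of the small changes was uneven. The signal was lower in both lines for 59 of 100 members and higher in both for 15, and the other 26 moved in opposite directions. Of all genes tested, 33.3% were lower and 34.2% were higher in both lines. The median log2 change over members was -0.08 in line 8534 and -0.18 in line 8542, whereas the median of all genes was 0.011 and 0.00014. Of the 534 bright genes above, 49.3% were lower and 32.4% were higher in both lines, with medians of -0.07 and -0.06, and the 50 members among them had medians of -0.07 and -0.14. Of the wider set of 4549 genes at or above the 75th percentile of level, 39.7% were lower and 38.5% were higher, with medians of -0.02 and 0.01. The lean varied with the scaling of the arrays. With quantile normalization 46 members were lower and 28 were higher in both lines, the median member changed by -0.03, and of the 534 bright genes 38% were lower and 43.3% were higher.

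**Figure D1:**
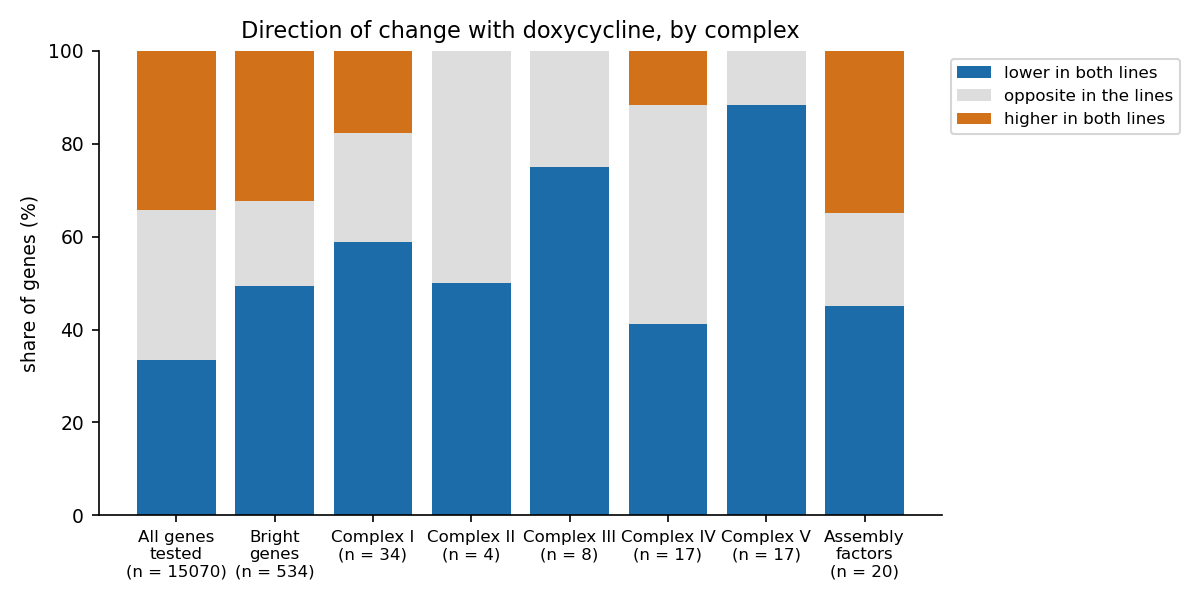
Share of genes (y axis, %) that were lower in both lines, higher in both lines or opposite in the lines after 24 hours of doxycycline, for all genes tested, for bright genes (at or above the median level of the members) and for each complex. The share lower in both lines was 33.3% of all genes, 49.3% of bright genes and 88.2% of complex V subunits.

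The subunits of complex V showed the most uniform shift of the complexes by value. Their median change was -0.18 in line 8534 and -0.19 in line 8542, and 15 of 17 subunits were lower in both lines and none was higher in both. The exceptions, Atp5md and Atp5l, differed in sign between the lines. With quantile normalization 12 of 17 were lower in both lines, 1 was higher, and the median was -0.10. The median changes in lines 8534 and 8542 were -0.09 and -0.12 for the 34 subunits of complex I, -0.03 and -0.17 for the 4 of complex II, -0.09 and -0.19 for the 8 of complex III, and -0.07 and -0.12 for the 17 of complex IV tested. Assembly factors had medians of 0.09 and -0.21. Differences between complexes were not tested.

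**Figure D2:**
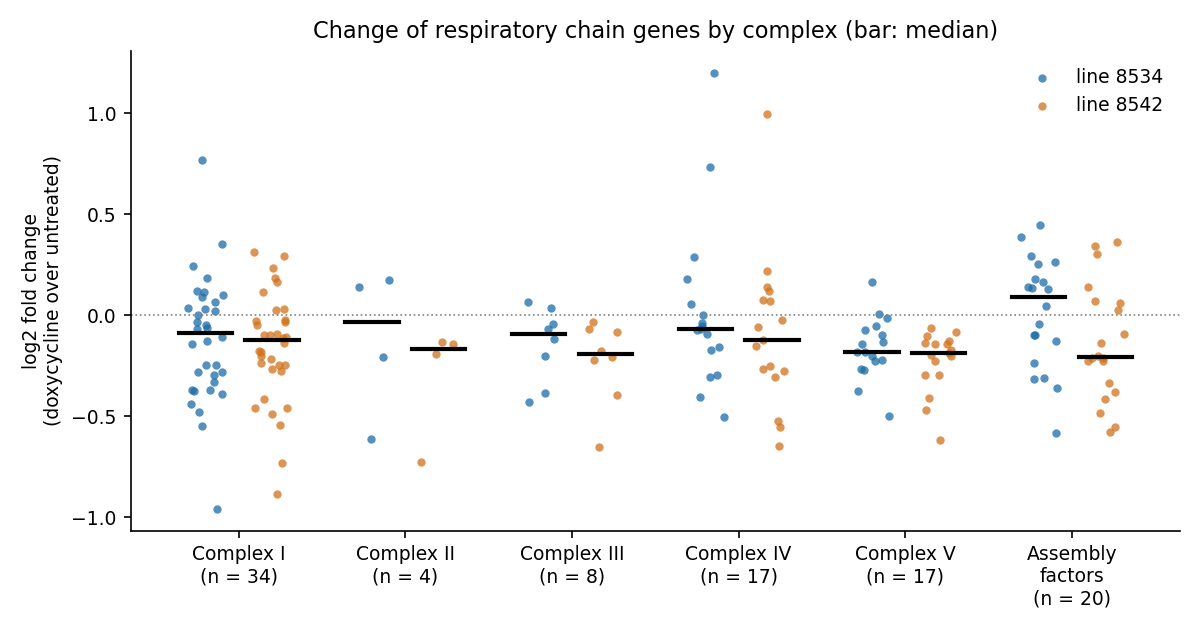
Log2 fold change (y axis, doxycycline over untreated) of each tested member in line 8534 and line 8542, grouped by complex, with a bar at the median of each group. The points of complex V lie between -0.50 and 0.16 in line 8534 and between -0.62 and -0.06 in line 8542.

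The promoters of the members were searched for short sites of NRF1, of GABP and other ETS factors, of MYC, of YY1, and of RBPJ, the DNA-binding partner of ICN1. RefSeq promoter windows (build GRCm38.p6, 250 bases before to 50 after the start) matched 84 of 102 members by gene ID. Of these, 29.8% held the ETS core CCGGAAG, which GABP binds, and 13.1% held GCGCATGC, the core of the NRF1 site, on either strand. The shares were 9.12% and 2.8% of all 27025 genes with a window, and 15.7% and 4.76% of 12005 tested genes with one. The YY1 core AAGATGGCG was in 8.33% of members, 1.49% of all genes and 2.77% of tested genes. The E-box CACGTG, bound by MYC, was in 7.14%, 7.24% and 9.41%, and the RBPJ core CGTGGGAA, which can overlap the E-box, in 1.19%, 0.762% and 1.12%. Of the members that fell, Sdhd and Cox8a held the ETS core and Atp5g2 held the NRF1 core. For Ndufa5 and Uqcrfs1 no match was recorded, which a gene without a window would also give. The median change was -0.08 for the 25 tested members with the ETS core and -0.20 for the 57 without. The medians with and without the site were -0.08 and -0.16 for NRF1, -0.11 and -0.16 for YY1, and -0.13 and -0.13 for the E-box. These matches describe the windows and do not show binding.

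Sdhd and Atp5g2 were among the members that fell, and their cores lie wholly before the start. Their 120 bases before the start are shown with the matches in capitals. That of Sdhd is the ETS core on the reverse strand (chr9:50603850-50603969, minus strand), and that of Atp5g2 is a pair of overlapping NRF1 cores, 1 on each strand (chr15:102671048-102671167, minus strand). The first base of the match lies 46 bases before the start in Sdhd and 42 in Atp5g2. For Cox8a the position of the core was not recorded.
Sdhd: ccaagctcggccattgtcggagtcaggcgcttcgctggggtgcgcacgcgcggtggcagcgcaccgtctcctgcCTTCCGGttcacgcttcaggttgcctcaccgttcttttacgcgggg
Atp5g2: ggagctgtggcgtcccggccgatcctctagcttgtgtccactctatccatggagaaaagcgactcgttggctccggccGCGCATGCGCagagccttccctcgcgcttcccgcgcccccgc

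Complex I holds the largest fall of the chain. Ndufa5 (probe set 1417285_a_at), an accessory subunit of the peripheral arm, gave 634 units without and 326 units with doxycycline in line 8534, and 706 and 382 units in line 8542. Both treated arrays lay below both untreated arrays. The fall was 1.94-fold in line 8534 and 1.85-fold in line 8542, or -0.92 ± 0.05 on the log2 scale (SD, n = 2; adjusted p by limma = 0.0054). Its other probe set (1417286_at) gave 467 and 219 units in line 8534 and 661 and 336 units in line 8542, which is a fall of similar size.

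The core subunits of complex I, which carry the flavin and the iron-sulfur clusters, did not pass the test. Ndufs7, which binds the last cluster before ubiquinone, gave 1000.4 units without and 764 units with doxycycline in line 8534, and 1079 and 739 units in line 8542 (mean log2 fold change -0.47 ± 0.11, limma adjusted p = 0.0534). Ndufv1, the flavin-binding subunit, gave 587 and 432 units in line 8534 and 702 and 527 units in line 8542 (-0.43 ± 0.02, limma adjusted p = 0.0806). These are the core subunits nearest the threshold. Ndufs1, Ndufs3, Ndufs8 and Ndufv2 had mean log2 fold changes of -0.26, -0.08, -0.19 and -0.29. The 9 tested subunits with Ndufs or Ndufv symbols had medians of -0.25 and -0.14 in the 2 lines, and the 25 with Ndufa, Ndufb or Ndufc symbols had medians of -0.07 and -0.11. The 9 are not all core subunits. They include the accessory subunits Ndufs4, Ndufs5 and Ndufv3, with mean log2 fold changes of 0.14, 0.08 and 0.09.

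Among accessory subunits, Ndufb1 gave 167 and 120 units in line 8534 and 211 and 150 units in line 8542, which at -0.48 ± 0.01 on the log2 scale did not pass (limma adjusted p = 0.127). The opposite sign was seen for Ndufa13, also known as GRIM-19, at 1667 and 2125 units in line 8534 and at 2076 and 2438 units in line 8542 (0.29 ± 0.08, limma adjusted p = 0.152), and for Ndufb2 (0.21 ± 0.13, limma adjusted p = 0.345). Neither passed.

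In complex II, only Sdhd passed the test. Sdhd (1428235_at), a membrane anchor of succinate dehydrogenase, gave 908 units without and 593 units with doxycycline in line 8534, and 902 and 545 units in line 8542. The untreated arrays of both lines were nearly equal, and both treated arrays were lower. The fall was 1.53-fold in line 8534 and 1.65-fold in line 8542, or -0.67 ± 0.08 on the log2 scale (SD, n = 2; adjusted p by limma = 0.0151). Its other probe set (1437489_x_at) gave 127 and 118 units in line 8534 and 114 and 91.4 units in line 8542, and over the mean of both the call was lost (limma adjusted p = 0.101). Sdha, the flavoprotein, changed by -0.17 ± 0.04 (limma adjusted p = 0.472). Its other tested probe sets differed from this. One changed by -0.72 and -0.27 (1426689_s_at, limma adjusted p = 0.103), and a dim one by 1.18 and -0.51 (1433293_at, 6.95 to 48.5 units). Sdhb, the iron-sulfur protein, and Sdhc, the other anchor, moved in opposite directions in the lines (0.17 and -0.19 for Sdhb, 0.14 and -0.13 for Sdhc). A second probe set of Sdhc (1448630_a_at) had the reverse signs, with -0.28 and 0.07, so the direction in each line depends on the probe set.

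Uqcrfs1 (1450968_at), the Rieske iron-sulfur protein of complex III, gave 1289 units without and 956 units with doxycycline in line 8534, and 1976 and 1256 units in line 8542. Line 8542 was the higher line in both conditions. Its fall was 1.35-fold in line 8534 and 1.57-fold in line 8542, or -0.54 ± 0.16 on the log2 scale (SD, n = 2; adjusted p by limma = 0.0303). With quantile normalization it missed the threshold (limma adjusted p = 0.0517). The core proteins of the complex did not pass. Uqcrc1 gave 1145 and 1112 units in line 8534 and 1240 and 1210 units in line 8542 (-0.04, limma adjusted p = 0.886), and Uqcrc2 changed by -0.28 ± 0.15 (limma adjusted p = 0.212). A dimmer probe set of Uqcrc2 (1435757_a_at) changed by -0.42 and -0.40 (limma adjusted p = 0.0854), which in line 8534 is near the fall of Uqcrfs1. Uqcr10, a small subunit, changed by -0.30 ± 0.14 (limma adjusted p = 0.186).

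In complex IV the call was Cox8a (1448222_x_at), the widely expressed isoform of a small subunit. It gave 2184 units without and 1650 units with doxycycline in line 8534, and 2838 and 1931 units in line 8542, so that both treated arrays lay below both untreated arrays. The fall was 1.32-fold in line 8534 and 1.47-fold in line 8542, or -0.48 ± 0.11 on the log2 scale (SD, n = 2; adjusted p by limma = 0.0344). A second probe set (1416112_at) gave 2119 and 1583 units in line 8534 and 2815 and 1943 units in line 8542. Another (1436409_at) gave 27.8 to 33.7 units on all arrays, and the call was lost over the mean of the 3 probe sets (limma adjusted p = 0.235) and with quantile normalization (0.0583).

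By the probe set that represents each gene, the other subunits of complex IV with bright signals stayed closer to 0. Cox4i1, which holds the nucleotide-binding regulatory site of the enzyme, gave 3253 and 3138 units in line 8534 and 3934 and 4147 units in line 8542 (0.01 ± 0.09, limma adjusted p = 0.964). Cox5a changed by -0.11 ± 0.06 and Cox5b by -0.08 ± 0.06 (limma adjusted p = 0.578 and 0.708). Cox7a2l, a factor of supercomplex assembly, changed by -0.31 in each line (limma adjusted p = 0.148). Its other probe sets, also bright, changed by -0.60 and -0.35 (1432264_x_at, limma adjusted p = 0.054) and by -0.52 and -0.15 (1432263_a_at, 0.181). Cox6c changed by -0.17 and 0.12, and by -0.44 and -0.24 on a dimmer probe set (1434491_a_at, limma adjusted p = 0.112). Ndufa4 changed by 0.29 and 0.07 (limma adjusted p = 0.429). As a group, 7 of 17 tested subunits were lower in both lines and 2 were higher, and the median turned from -0.04 to 0.06 with quantile normalization.

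Several complex IV genes encode isoforms that are known from heart and skeletal muscle, lung or testis. Most of their probe sets gave low signals on every array. Cox4i2 gave 36.3 units without and 41.2 units with doxycycline in line 8534, then 40.2 and 33.4 units in line 8542. In the same order Cox6a2 gave 37.4, 62.2, 64.4 and 41.1 units, and Cox7a1 gave 36.5, 36.6, 52.0 and 36.1 units. Cox6b2 (6.26 to 14.8 units) and Ndufa4l2 (9.67 to 25.5 units) were lower still, and Cox8b and Cox7b2 lay under the filter and were not tested. Cox8c was at 258 to 323 units. Their partners in the common enzyme, Cox6a1, Cox6b1 and Cox7a2, had mean log2 fold changes of 0.01, -0.06 and -0.20. Signals of different probe sets do not measure relative amounts, so isoforms were not set against each other. None of the tested isoform genes passed the test, and the changes of the dim ones differed in sign between the lines or had a large spread, as for Cox6b2 (1.20 in line 8534 and 0.22 in line 8542).

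In the ATP synthase, Atp5g2 (1415980_at), which encodes the c subunit of the membrane ring, gave 2323 units without and 1645 units with doxycycline in line 8534, and 2630 and 1900.5 units in line 8542. Both treated arrays lay below both untreated arrays. The fall was 1.41-fold in line 8534 and 1.38-fold in line 8542, or -0.48 ± 0.02 on the log2 scale (SD, n = 2; adjusted p by limma = 0.0298). Its other probe sets gave 8.24 to 33.9 units on all arrays, and the call was lost over the mean of the 3 (limma adjusted p = 0.413) and with quantile normalization (0.0513). The same mature c subunit is encoded by Atp5g1 and Atp5g3. Atp5g1 changed by -0.23 and -0.62 (limma adjusted p = 0.105), and Atp5g3 by -0.10 and -0.08 (limma adjusted p = 0.65), with 5424 and 5066 units in line 8534 and 5922 and 5596 units in line 8542.

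The catalytic head of the synthase did not pass the test, although all of its members named here were lower in each line. Atp5a1, the alpha subunit, gave 2536 units without and 1955 units with doxycycline in line 8534, and 2793 and 2272 units in line 8542 (-0.34 ± 0.05, limma adjusted p = 0.0962). Atp5b, the catalytic beta subunit, gave 3977 and 3301 units in line 8534 and 4126 and 3361 units in line 8542 (-0.28 ± 0.02, limma adjusted p = 0.138). Atp5c1, the rotating gamma subunit, changed by -0.23 ± 0.06 (limma adjusted p = 0.241).

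**Figure D3:**
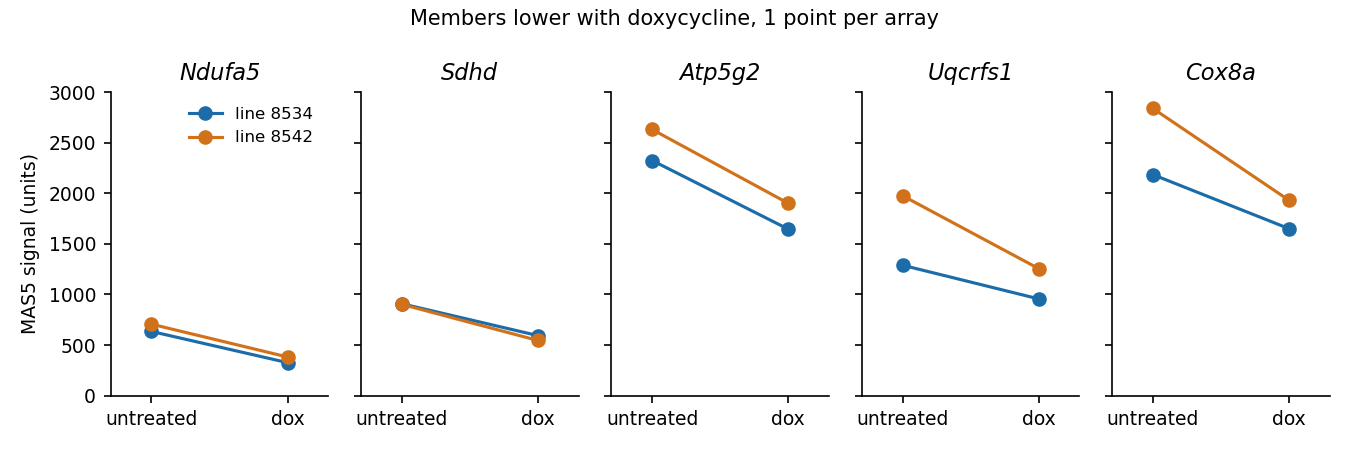
MAS5 signal (y axis, units) of the members that passed the test, on the untreated and doxycycline-treated (dox, 24 hours) array of each cell line. Each point is 1 array and lines join the arrays of 1 cell line. For Ndufa5 the treated arrays lie at 326 and 382 units, below the untreated arrays at 634 and 706 units.

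Assembly factors lacked a shared direction. Of 20 tested, 9 were lower in both lines, 7 were higher in both and 4 were opposite, and limma called none (0 lower and 2 higher at an unadjusted p under 0.05, against 14.1% and 12.4% of all genes tested). A second probe set of Ndufaf4 (1435333_at) was called lower (-0.86 and -1.31, limma adjusted p = 0.0212), while the one that represents the gene changed by -0.10 and -0.58 (limma adjusted p = 0.378). For complex I, 6 of 8 Ndufaf genes were lower in both lines, with medians of -0.17 and -0.28. For complex IV, 2 of 8 Cox genes were lower in both lines and 4 were higher. The values farthest above 0 in both lines were those of Sdhaf4, which protects the flavinated SDHA, at 272 and 333 units in line 8534 and at 583 and 739 units in line 8542 (0.32 ± 0.04, limma adjusted p = 0.197). Next were Cox17, the copper chaperone of cytochrome c oxidase (0.44 and 0.14, limma adjusted p = 0.218), and Cox20. The values farthest below 0 were those of Sdhaf3 (-0.58 and -0.21, limma adjusted p = 0.361) and Ndufaf5 (-0.31 and -0.48, limma adjusted p = 0.315).

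The changes of the lines ran together where signals were bright. Across the 79 tested members with a mean log2 signal of at least 8, the changes of the 2 lines had a Pearson r of 0.73, and across all 100 the r was 0.35. These correlations are across genes of the same 4 arrays, which are not independent. The median gap between the lines was 0.12 for a member, 0.19 for genes at or above the 75th percentile of level and 0.32 for all genes tested.

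**Figure D4:**
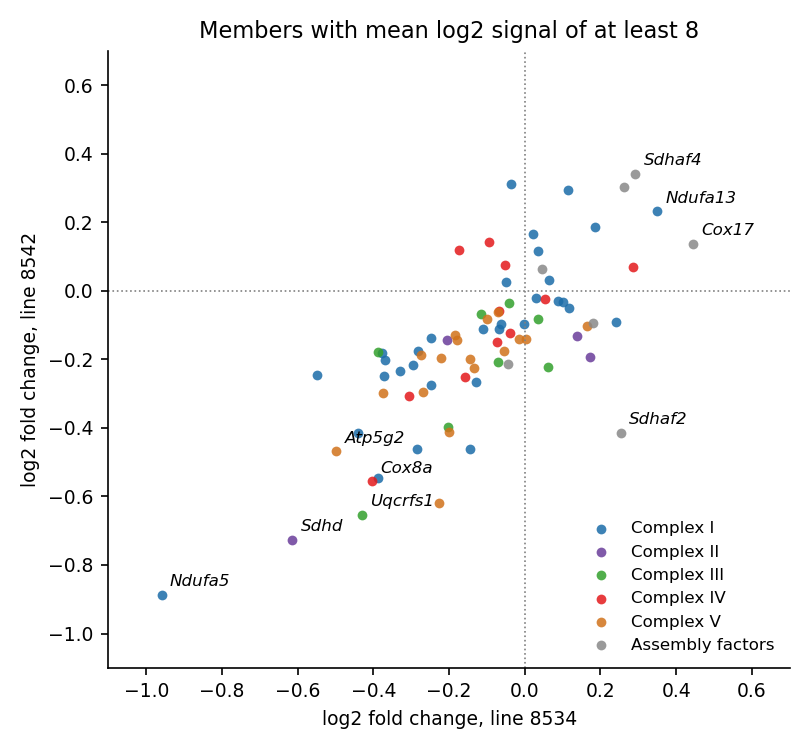
Log2 fold change (doxycycline over untreated) in line 8542 (y axis) against line 8534 (x axis) for the 79 tested members with a mean log2 signal of at least 8, colored by complex. Ndufa5 and Sdhd lie farthest down the diagonal at -0.96 and -0.89 and at -0.61 and -0.73, and Sdhaf2 lies off it at 0.25 and -0.41.

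The lines themselves differed more than the treatment for some members. Both arrays of line 8542 were above both arrays of line 8534 for 42 of 100 members and below them for 6, against 20.3% and 17.6% of all genes tested and 21.2% and 16.3% of the genes at or above the 75th percentile of level. Ndufs5, an accessory subunit of complex I, gave 185 and 219 units in line 8534 and 702 and 659 units in line 8542. Ndufb10 had the opposite order, with 1349 and 1135 units in line 8534 and 819 and 677 units in line 8542. With 1 culture of each line per condition, a difference between the lines has no replicate.

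Genes around the chain outside the symbol rule gave further calls, to be read against the 6.95% of all genes tested that fell and the 4.76% that rose. Tfam, which packages mitochondrial DNA and acts in its transcription, fell 1.71-fold and 1.69-fold (394 and 231 units in line 8534, 340.5 and 201 units in line 8542, limma adjusted p = 0.0169). It was the single call among 11 genes of mitochondrial genome expression. Of 10 nuclear regulators, 2 fell and none rose. Ppargc1b, the PGC-1beta coactivator, gave 105 and 47.3 units in line 8534 and 110 and 21.6 units in line 8542 (limma adjusted p = 0.0171), and Myc went from 289 to 137 units and from 369 to 134 units (limma adjusted p = 0.00465). Pprc1, a related coactivator, changed by -0.58 ± 0.04 and did not pass (limma adjusted p = 0.0708). Nrf1 (0.17 and -0.16) and Gabpa (-0.48 and 0.06) did not pass and differed in sign between the lines.

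Of 17 genes of the tricarboxylic acid cycle, 3 fell and none rose. They were Suclg2, a subunit of succinyl-CoA ligase (1.73-fold and 1.74-fold, limma adjusted p = 0.0107), the isocitrate dehydrogenase Idh2 (1.51-fold and 1.53-fold, limma adjusted p = 0.0233) and the fumarase Fh1 (1.48-fold and 1.42-fold, limma adjusted p = 0.0355). Of 7 carriers and porins, 1 fell, the ADP/ATP carrier Slc25a5 (1.55-fold and 1.53-fold, limma adjusted p = 0.0105), while Slc25a4 missed the threshold (-0.30 and -0.61, limma adjusted p = 0.0561). Of 24 assembly factors with other symbols, 2 fell and none rose. Atpaf2, which assembles the alpha subunit of the synthase, went from 71.7 to 35.1 units and from 96.2 to 27.7 units (limma adjusted p = 0.0233), and Uqcc2, of complex III, from 2607 to 1876 units and from 1281 to 864 units (limma adjusted p = 0.0266).

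Of 16 genes of electron carriers and quinone synthesis, 2 fell and 1 rose. Coq7, a hydroxylase of ubiquinone synthesis, fell 1.44-fold and 1.60-fold (limma adjusted p = 0.0352), and Dhodh, which makes pyrimidines while passing electrons to ubiquinone, fell 1.71-fold and 2.29-fold (limma adjusted p = 0.0458). Coq10b, a ubiquinone-binding protein, rose from 266 to 445 units and from 307 to 477 units (limma adjusted p = 0.0209). Cytochrome c itself, Cycs, gave 2005 and 1674 units in line 8534 and 2217 and 1269 units in line 8542, and did not pass (limma adjusted p = 0.0699). Cyc1, the cytochrome c1 subunit of complex III, changed by -0.23 ± 0.23 (limma adjusted p = 0.333).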

How the data were processed

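Total RNA from untreated and doxycycline-treated cells of both lines was hybridized to Affymetrix mouse genome arrays, 1 per line and condition. MAS5 was used by the authors, and the deposited values are MAS5 signals on the log2 scale (base inferred from their range). Its version and scaling target were not stated in the sources available. The study calls it the 430A2.0 array, although 45101 probe sets are listed. All arrays were scaled alike (trimmed means of 97.7 to 101.8 units), so that changes are relative to the bulk of the array and a shift of all genes cannot be seen.

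Control probe sets (64) were left out. Symbols were those of the platform annotation, and each gene was represented by the single-symbol probe set brightest on average (203 such probe sets for the members). A further 11 probe sets carry a member's symbol beside others and were not used. Fold changes were taken within each line. Probe sets whose average log2 value reached the 25th percentile (2.94) entered limma 3.58.1 (R 4.3.3), with cell line as a block, doxycycline as the effect, an intensity trend in eBayes and Benjamini-Hochberg adjustment. A call is an adjusted p under 0.05. There were 1 residual and 6.18 prior degrees of freedom. Line pairs the arrays because both come from the same cells, and deviations from the means of the conditions were correlated within lines (r = 0.36). P-values rest in part on the spread between 2 lines, which includes the noise of single arrays. With 6.18 prior against 1 residual degree of freedom, they rest more on the spread of other probe sets of similar signal. The model was also run on simulated data, drawn without a difference between lines and with changes larger than those of most members. That run cannot check calls of changes as small as those of the members.

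Members, lists and motifs were chosen with earlier results of these data known. Values are named for core subunits, the members with the largest changes in each complex, all called members and paralogous isoforms. Alternatives were the fit without the block, quantile normalization, median centring, other filters, a floor, a pseudocount, the mean of probe sets, no trend, and each line alone.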

Additional observations from a re-analysis of the deposited data

Results flagged for a closer look

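The median change of the assembly factors had opposite signs in the lines, 0.09 for 8534 and -0.21 for 8542, which differ by -0.297. Among single members, Ndufb4 (0.77 and -0.73, a difference of -1.5), Cox6a2 (0.73 and -0.65, a difference of -1.38) and Ndufa4l2 (-0.50 and 0.99, a difference of 1.5) moved by more than 1 log2 unit apart in opposite directions. Their signals were low, at 11.5 to 21.1 units for Ndufb4, 37.4 to 64.4 units for Cox6a2 and 9.67 to 25.5 units for Ndufa4l2. These differences were not tested, since each line has 1 array per condition.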

How the results depend on the processing

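Of the members called lower (5), 0 remained without the replicate block and 0 without the intensity trend (lowest adjusted p of a called member 0.14 and 0.253), 2 were called with quantile normalization, 2 with no filter and 3 with the mean of all probe sets of a gene. The share of all genes called lower moved too, from 6.95% to 0.365%, 0%, 5.78%, 4.4% and 5.56% in that order. The stricter filter and the floor gave 6 calls each, and the pseudocount and median centring 5 each. No alternative called a member higher. Ndufa5 was called in 7 of 9 alternatives, Sdhd in 6, Uqcrfs1 in 5, and Atp5g2 and Cox8a in 4 each, and none of the 5 changed sign in any. The main adjusted p of Ndufa5 of 0.0054 ranged from 0.003 to 0.253.

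The counts of members lower and higher in both lines, 59 and 15, became 46 and 28 with quantile normalization, and lay between 58 and 61 and between 14 and 16 in the other alternatives (all added for these counts after the data were seen). With quantile normalization the median change was -0.0326 for all members, -0.0278 for complex I, -0.0344 for complex III, 0.0569 for complex IV and -0.0995 for complex V. Over the mean of probe sets it was -0.167 for complex I, -0.197 for complex III and -0.185 for complex V, and with median centring -0.179 for complex V. With 1 line alone the median lay between -0.176 and -0.0837 for all members, -0.193 and -0.0939 for complex III, -0.123 and -0.067 for complex IV, and -0.188 and -0.18 for complex V. No call could be made with 1 line alone, since no residual degrees of freedom remain. The cause of these shifts was not tested.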

Other observations

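The array also holds a probe set (1426088_at) for ND5, a complex I subunit encoded by mitochondrial DNA, which the symbol rule leaves out and which was taken up after its values were seen. Without and with doxycycline it gave 4416 and 4839 units in line 8534 and 4644 and 4958 units in line 8542, or 0.13 and 0.09 on the log2 scale (limma adjusted p = 0.56).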
